A study of Mus musculus and Homo sapiens with 12 samples.

Results

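L1MdA elements are the copies of the A lineage of mouse long interspersed nuclear element 1 (L1), and 41306 of the 3158171 repeat elements in the mouse table were annotated to it. They were taken as every element whose subfamily name starts with L1MdA_, which gave 7 subfamilies: 3651 L1MdA_I, 4081 L1MdA_II, 9357 L1MdA_III, 4846 L1MdA_IV, 3119 L1MdA_V, 7540 L1MdA_VI and 8712 L1MdA_VII elements. Of these, 25202 had a read in at least 1 library and 16104 had none, and 7319 spanned 5000 bp or more. The study compared wild-type (WT) mouse embryonic stem (mES) cells with mES cells lacking Tet2 (Tet2 KO), 3 libraries each, to ask which chromatin-associated RNAs (caRNAs) change in the 5-methylcytosine (m5C) fraction when TET2, an enzyme that oxidizes methylated cytosine, is lost. Both lines were gifts from another laboratory and were grown in serum with LIF and the inhibitors CHIR99021 and PD0325901, after passages on gelatin that removed feeder cells. Each library held fragments of caRNA pulled down with an anti-m5C antibody (Diagenode MAb-081-100), and no input RNA was analysed here, so that more m5C and more RNA of an element cannot be told apart. The study's legends call the 3 sequenced replicates biological, but neither they nor the labels say whether each was a separate culture, so p-values measure the spread between these samples. The table holds repeat elements and no genes, so Tet2 itself was not analysed here.

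L1 elements copy themselves through an RNA that encodes an RNA-binding protein (ORF1p) and an endonuclease and reverse transcriptase (ORF2p). Mouse A-type elements carry their promoter in tandem monomers at the 5′ end, and most genomic copies have lost that end, which is put down to early stops of reverse transcription. The A, Tf and Gf lineages hold the youngest L1 copies of the mouse genome, and L1 RNA is a well-known component of chromatin in mouse embryonic stem cells.

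WT libraries held 2199886 to 3318565 counts, and Tet2 KO libraries 1532029 to 1999210, over the 4 classes of repeats used (DNA, LINE, LTR and SINE), so depth was lower in every KO library. L1MdA elements took 12.9% ± 0.235 of these counts in WT (SD, n = 3) and 18.5% ± 0.611 in KO. Counts were fractional, and 5.33% of the non-zero L1MdA values were whole numbers within 0.005, against 22.3% over the 4 classes. How reads of near-identical copies were divided is not given in the sources used here, so values of single elements are uncertain. Spike-ins were not used here, so every rise or fall below is relative to the other repeats of the same library. The paper reports a higher caRNA m5C level in Tet2 KO cells, and the absolute direction of an element cannot be read from these values.

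The study's bisulfite amplicon for L1MdA lies in ORF1 and is shown because it separates the 2 L1MdA subfamilies with the most counts. Its primer sites, read on the C-to-T converted sense strand, were found in 1268 L1MdA_I, 1088 L1MdA_II and 425 L1MdA_III elements, and in 75 elements of the other subfamilies together. The commonest amplicon of L1MdA_I was 104 bases long and was identical in 1074 elements, and that of L1MdA_II was 146 bases long and was identical in 590. They are printed from GRCm38 (mm10) at chr3:91100729-91100832, plus strand, and chr9:79404026-79404171, plus strand, with capitals for the 42 bases that L1MdA_II has in addition.
L1MdA_I: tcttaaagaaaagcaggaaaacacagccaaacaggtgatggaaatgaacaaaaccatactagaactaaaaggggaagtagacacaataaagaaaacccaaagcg
L1MdA_II: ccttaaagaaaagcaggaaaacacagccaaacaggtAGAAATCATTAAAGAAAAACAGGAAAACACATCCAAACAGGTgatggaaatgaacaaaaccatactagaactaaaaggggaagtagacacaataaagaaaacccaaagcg
Counted from 1 at the 5′ end, the added bases are printed as positions 37 to 78 of the longer amplicon. The bases before this stretch repeat at its end, so starts from position 27 to 37 fit equally well. The remaining bases differ by 1 substitution, T1C (L1MdA_I base first). Between the primers the shorter amplicon has 8 cytosines and the longer has 15, 7 of them in the added stretch. The open reading frame that holds the amplicon was most often 1074 bases in long L1MdA_I elements (1041 of 1211) and 1116 bases in long L1MdA_II elements (631 of 993).

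The study's general mouse L1 primers (mLINE) are shown because they do not single out this lineage.
mLINE-F: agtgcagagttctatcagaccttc
mLINE-R: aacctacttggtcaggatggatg
Both sites occurred without a mismatch in 4522 L1MdA, 3505 L1MdTf and 1302 L1MdGf elements, and the product between them was most often 268 bases long. In long L1MdA elements with both sites and a reading frame of at least 3800 bases, the product lay inside that frame, which is ORF2, in 962 of 967. The sites were searched in the L1MdA, L1MdTf and L1MdGf lineages only. Of the m5C-IP counts of their elements with both sites, L1MdA elements held 19.6%, 20.4% and 19.4% in WT against 34.8%, 36.8% and 35.6% in KO. L1MdTf held 68.8% ± 0.676 in WT and 55.1% ± 0.668 in KO (SD, n = 3). These are counts over whole elements and not over the primer product, given here as a description.

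The youngest subfamily, L1MdA_I, rose in the m5C fraction of Tet2 KO cells. Its level was 45959.9, 43884 and 47407 CPM (read counts over library size, scaled between libraries by TMM) in WT and 83701, 99823 and 85292 in KO, and every KO library lay far above every WT library. The change was a log2 fold change of 0.97 ± 0.0838 (SE, n = 3 per group; adjusted p = 0.00168, edgeR quasi-likelihood test over 547 subfamilies). With the replicate number as a block the change was the same and the call was lost (adjusted p = 0.0659, edgeR), although same-numbered libraries did not deviate together. Of the 547 subfamilies, 0.366% were called higher in KO and 1.65% lower. More cells with L1MdA_I RNA and more of it per cell cannot be told apart in these bulk samples.

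L1MdA_II stood at 34580.3, 39757 and 43726 CPM in WT and 49956, 43759.7 and 44627 in KO. The groups touched without overlapping, and the log2 difference of 0.23 ± 0.104 did not pass (adjusted p = 0.319, edgeR). L1MdA_III fell, from 34059, 36230.3 and 37976 CPM in WT to 27981, 25682 and 24610.1 in KO, with a log2 change of -0.47 ± 0.0832 (adjusted p = 0.0403, edgeR). That call was lost without any 1 of the 6 libraries (adjusted p of 0.0557 to 0.159), with DESeq2 size factors (0.0857), with library totals (-0.29, adjusted p = 0.0927), with the replicate block (0.196) and with elements of at least 10 counts (-0.28, adjusted p = 0.216), although the direction stayed. Over the 15 alternatives its adjusted p ranged from 0.000118 to 0.216.

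The 4 older subfamilies were scarcer, at mean levels of 2500.4 to 5085 CPM in WT, and none of them passed. L1MdA_IV differed by -0.59 ± 0.132 on the log2 scale (adjusted p = 0.0940, edgeR), L1MdA_V by -0.46 ± 0.210 (0.321), L1MdA_VI by -0.39 ± 0.218 (0.428) and L1MdA_VII by -0.45 ± 0.148 (0.234). Groups did not overlap in L1MdA_IV, L1MdA_V and L1MdA_VII and overlapped in L1MdA_VI. Over the 7 subfamilies 2 had KO libraries above all WT libraries and 4 had them below, where 11.2% and 10.4% of all 547 did. The median log2 change was -0.45 over the 7 subfamilies and 0.12 over all 547.

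**Figure D1:**
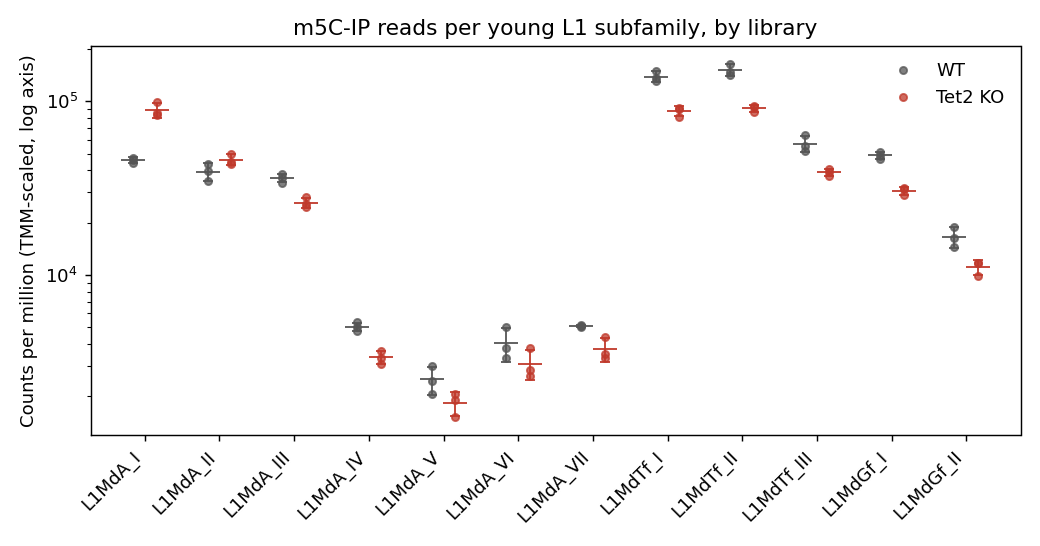
Levels of the 7 L1MdA, 3 L1MdTf and 2 L1MdGf subfamilies in the m5C fraction, in CPM on a log axis, with a point per library, the mean as a horizontal line and the SD as a bar (n = 3). L1MdA_I is higher in all 3 KO libraries, at 83701 to 99823 against 43884 to 47407 in WT, whereas L1MdA_III and all L1MdTf and L1MdGf subfamilies are lower.

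The rise of L1MdA_I was not shared by the other young lineages. Relative to the other repeats of a library, all 3 L1MdTf subfamilies fell (log2 change -0.73 to -0.55). Of the L1MdGf subfamilies L1MdGf_I fell (-0.67, adjusted p = 0.00403, edgeR) and L1MdGf_II differed by -0.58 (adjusted p = 0.0940). The 9 tested L1MdF, L1MdN and L1MdV subfamilies ranged from -0.87 to 0.03. Ratios within a library do not depend on scaling between libraries. The log2 ratio of L1MdA_I over all L1MdTf counts was -2.84, -2.92 and -3.00 in WT and -1.42, -1.16 and -1.29 in KO, a difference of 1.63. For L1MdA_I over L1MdGf the difference was 1.61, for L1MdA_I over L1MdA_III 1.43, for L1MdA_I over L1MdA_II 0.73 and for all L1MdA over L1MdTf 1.00. In all 5 ratios the KO libraries lay above the WT libraries, and each had p = 0.1 in the two-sided exact permutation test, the smallest that 20 assignments allow (adjusted over 5, 0.1).

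The rise of L1MdA_I was called in its long copies and not in its short ones. Its 1428 elements of 5000 bp or more stood at 41134, 38224 and 40868 CPM in WT and 78109, 93151 and 86026 in KO, a log2 change of 1.10 ± 0.0752 (adjusted p = 0.00117, edgeR over 698 subfamily and length classes). Its 2223 shorter elements stood at 4675, 4749 and 5215 CPM in WT and 5317, 5593 and 5247 in KO, a difference of 0.14 ± 0.106 that did not pass (adjusted p = 0.512). Of the 698 classes, 0.287% were called higher and 1.58% lower.

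In L1MdA_II the long elements differed by 0.35 ± 0.0951 (adjusted p = 0.159, edgeR) and the short ones by -0.28 ± 0.148 (0.383), so the KO means lay on opposite sides of WT without either class passing. In L1MdA_III the short elements fell by 0.75 ± 0.1002 on the log2 scale (adjusted p = 0.0123, edgeR), and the long ones differed by -0.32 ± 0.0699 (0.0841). The call of the short L1MdA_III elements was lost without WT replicate 1, 2 or 3 or KO replicate 2 (adjusted p of 0.0622, 0.0575, 0.0562 and 0.0518). None of the 8 classes of the older subfamilies passed, with log2 differences from -0.80 in short L1MdA_IV to 0.08 in short L1MdA_V.

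**Figure D2:**
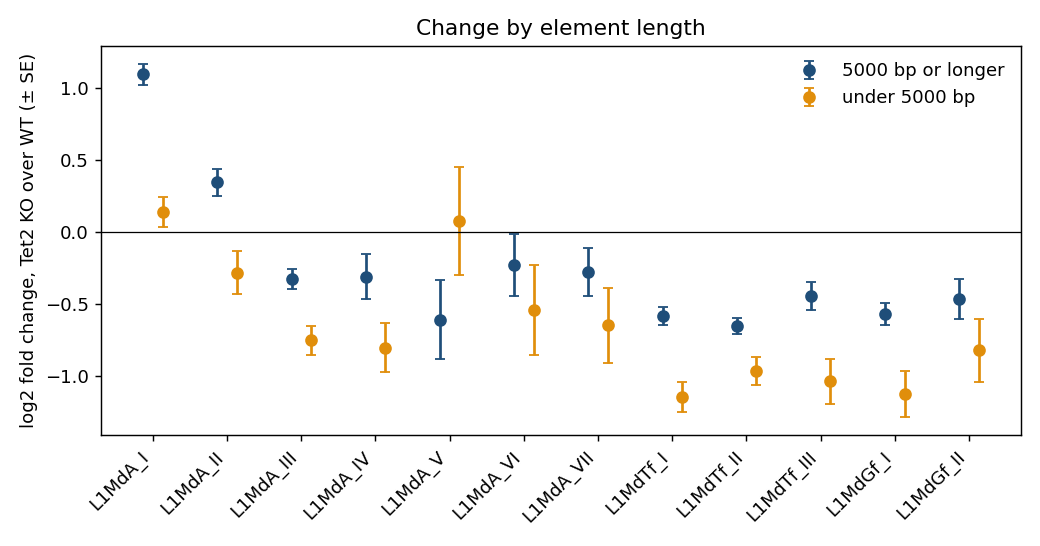
Log2 fold change of KO over WT, with its SE, for elements of 5000 bp or longer and for shorter ones in each L1MdA, L1MdTf and L1MdGf subfamily. L1MdA_I long elements stand alone at 1.10, and in every subfamily except L1MdA_V the long elements lie above the short ones.

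The difference between length classes was tested on the log2 ratio of long over short counts in each library. In L1MdA_I this ratio was 3.14, 3.01 and 2.97 in WT and 3.88, 4.06 and 4.04 in KO. It was higher in every KO library than in every WT library in L1MdA_I (difference 0.95), L1MdA_II (0.64), L1MdA_III (0.43) and L1MdA_IV (0.49). Each of these gave p = 0.1 in the exact permutation test, the smallest possible, and 0.175 adjusted over 7 subfamilies. In L1MdA_V, L1MdA_VI and L1MdA_VII the groups overlapped. The log2 change was also less negative in long than in short elements in L1MdTf and L1MdGf, for example -0.58 against -1.14 in L1MdTf_I, a difference that was not tested there.

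Single elements were next compared with no filter on low values, on the CPM scale of the subfamily fit. Of all 1428 long L1MdA_I elements, 1299 had a higher mean CPM in KO. In 860 (60.2%) every KO library lay above every WT library, where 4.05% of all long elements and 1.88% of those outside L1MdA did. The median level of the long L1MdA_I elements was 22.7 CPM in WT and 50.7 in KO. The opposite order, every KO library below every WT library, held for 15 of them (1.05%), against 12.2% of all long elements and 12.7% of those outside L1MdA. Long elements outside L1MdA had a median of 0.249 CPM in WT, and 34839 of 42254 held a count, against 1424 of 1428 in L1MdA_I. The shares of long elements are therefore not like for like. Near-identical copies can share reads, so the long L1MdA_I elements are not independent.

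Long L1MdA_II elements showed KO above WT without overlap in 264 of 1552 (17.01%) and below in 60 (3.87%). Of long L1MdA_III elements 48 of 1733 lay above (2.77%) and 255 below (14.7%), against 4.05% and 12.2% of all long elements. Those shares include L1MdA itself, and outside L1MdA they were 1.88% and 12.7%, at the lower median level given above. Of short L1MdA_I elements 85 of 2223 lay above (3.82%) and 97 below (4.36%), against 0.0715% and 0.262% of all short elements. Only 269922 of all 3078676 short elements held a count, against 1763 of 2223 in L1MdA_I, so these shares are not like for like. In L1MdA_II 32 of 2529 short elements lay above (1.27%) and 231 below (9.13%). In L1MdA_III 32 of 7624 lay above (0.420%) and 888 below (11.6%). In the 4 older subfamilies, 1.23% to 3.23% of the long elements lay above and 9.66% to 18.0% below, against the same 4.05% and 12.2%, or 1.88% and 12.7% outside L1MdA.

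The change differed with how far an element reaches toward the 5′ end of its consensus, without a steady trend over the classes. These classes were set after the values were seen and are given without a test. Of L1MdA_I elements 1489 start within 1500 and 1428 span 5000 bp or more. Starts were not compared within a length class, so start and length cannot be told apart here. L1MdA_I elements whose first base lies within the first 100 consensus bases (875 elements) went from 26865, 24607 and 26922 CPM in WT to 54857, 64612 and 55688 in KO, a log2 ratio of 1.16. The ratio was 0.98 for starts at 101 to 450 (541 elements) and 0.98 for starts at 451 to 1500 (73 elements). Elements that begin further in did not share it, with a ratio of -0.11 for starts at 1501 to 3000, -0.72 at 3001 to 5000 and 0.04 beyond 5000. An L1MdA_I annotation on chr1 that aligns mostly to the mitochondrial genome, described with the single elements, held 50.4% of the WT counts of the class at 3001 to 5000, and without it the ratio was -0.42 and the groups overlapped.

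L1MdA_II had a ratio of 0.45 for starts within 100 and 0.26 at 101 to 450. It was near 0 at 451 to 1500 and at 1501 to 3000, where the groups overlapped, -0.71 at 3001 to 5000 and -0.46 beyond 5000. L1MdA_III was below WT in every class, from -0.35 at 101 to 450 to -0.85 at 3001 to 5000. All 3 KO libraries lay above all WT libraries in the first 3 classes of L1MdA_I and in the first 2 of L1MdA_II.

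The long elements differ in how many tandem units they carry, counted here over the whole element. Classes by unit number were not among the planned comparisons and are given without a test. In 22 L1MdA_I elements with more than 3000 bases before the amplicon, the bases before it matched themselves best at a shift of 208 bases, and the array of each element was measured as the bases in windows of 50 that match the sequence 208 bases on by at least 85%. The median long L1MdA_I element held 3.04 such units and the longest array held 35.1. By this measure the median was 0 in the other 6 subfamilies, where units of another period or under 85% identity would not be counted. Long L1MdA_I elements with under 1 unit (213 elements) had a log2 ratio of 0.34, and those with 1 to 3, 3 to 5 and 5 to 10 units had 1.05, 1.09 and 1.10. The mitochondrial-like annotation on chr1 held 29.5% of the WT counts of the class with under 1 unit, which had a ratio of 0.68 without it.

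The 22 L1MdA_I elements with 10 or more units stood apart at 1418, 1325 and 969 CPM in WT and 5901, 6021 and 6521 in KO, a log2 ratio of 2.31. Without their 3 highest elements the other 19 still went from 1080 CPM ± 227 to 3816 ± 157 (SD, n = 3), a ratio of 1.82. L1MdA_II elements with 5 to 10 units (23 elements) had the highest ratio among the L1MdA_II array classes, 0.90. The median span rose with the array, from 6158 bp for L1MdA_I elements with under 1 unit to 9033 bp for those with 10 or more, and its part in the ratio was not tested.

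Elements with the shorter form of the amplicon shown above had the larger log2 ratio in both subfamilies. L1MdA_I elements with the 104-base form (1233 elements) had a log2 ratio of KO over WT of 1.16 and those with the 146-base form (32 elements) 0.60. L1MdA_II elements with the 104-base form (44 elements) went from 936 CPM ± 68.2 to 1852 ± 378, a ratio of 0.98, and those with the 146-base form (1016 elements) had 0.37. KO libraries lay above WT libraries in all 4 classes, and the difference between forms is a description without a test.

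A reading frame of the length of ORF2 was commonest in L1MdA_I. The longest reading frame reached 3800 bases in 773 of 1425 long L1MdA_I elements read from the genome (54.2%), in 257 of 1549 L1MdA_II (16.6%) and in 55 of 1730 L1MdA_III (3.18%), and the commonest length in L1MdA_I was 3846 bases. Elements with this frame held 28.7%, 26.6% and 27.8% of the counts of long L1MdA elements in WT and 37.1%, 39.2% and 37.9% in KO. Within L1MdA_I alone their share was 54.5%, 51.4% and 53.0% in WT and 57.6%, 56.8% and 57.9% in KO. Neither pair of groups overlapped (p = 0.1 each, the smallest the exact permutation test allows, 0.15 adjusted over 3), and within L1MdA_II they did (21.0% ± 1.31 and 21.7% ± 0.892, p = 0.5). L1MdA_I elements without the frame also had more counts in KO, with a log2 ratio of 0.91 against 1.16 with the frame. The 0.91 became 1.02 without the mitochondrial-like annotation, which lacks the frame. Within L1MdA_I the difference in share was 4.46 percentage points, 2.57 without the mitochondrial-like annotation and 1.78 without the 10 highest L1MdA elements, where the groups overlapped (exact permutation p = 0.2).

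Mean base composition differed between subfamilies, although the SD ranges of L1MdA_I and L1MdA_II overlapped. Long L1MdA_I elements had a GC content of 42.6% ± 1.41 (SD over elements) and 1.45 ± 0.320 CpG per 100 bases, the highest of the 7 subfamilies, and L1MdA_VI the lowest with 38.9% ± 1.498 and 0.596 ± 0.190. L1MdA_II had 41.5% ± 1.04 and 1.13 ± 0.227.

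Shares by position relative to genes differed little. Of the L1MdA elements 27.6% lay in introns, 71.0% outside genes and 1.45% overlapped an exon of GENCODE M21, on either strand. Intronic elements held 24.4%, 24.1% and 24.3% of L1MdA counts in WT against 24.8%, 25.0% and 25.0% in KO, and elements outside genes 72.0% ± 0.230 and 71.5% ± 0.276. The groups did not overlap in either share (p = 0.1 each, the smallest the exact permutation test allows, 0.15 adjusted over 3). The differences were 0.67 percentage points in introns and -0.53 outside genes, the latter -1.13 without the mitochondrial-like annotation and -1.07 without the 10 highest L1MdA elements. Within L1MdA_I the log2 ratio of KO over WT was 1.05 in introns, 0.99 outside genes and 0.28 in the 63 elements that overlap an exon. The mitochondrial-like annotation is one of these and held 66.8% of their WT counts, and without it the other 62 went from 904 CPM ± 85.9 to 2456 ± 124 (SD, n = 3), a ratio of 1.44. In introns it was 0.94 for elements on the strand of the gene and 1.04 for those on the opposite strand.

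Single elements were also fitted one by one. Of the 41306 L1MdA elements 5082 passed the filter on low counts, 1597 of them L1MdA_I, 1652 L1MdA_II, 1517 L1MdA_III and 61 to 107 in each older subfamily, and 36224 were not tested. The filter admits an element that is high in one group alone, so counts over those that passed say nothing more about the lineage. The scaling of this fit puts log2 changes 0.45 above those of the subfamily fit. Of 19030 elements of all kinds 0.0473% were called, all higher in KO, and 2 of these 9 were L1MdA.

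Both are L1MdA_I copies with long arrays. The element at chr2:21995961-22007314 (mm10, minus strand), outside genes, had counts of 147, 184 and 127 in WT and 1557, 1529 and 2019 in KO, a log2 change of 4.41 ± 0.273 (adjusted p = 0.0203, edgeR). The element at chr7:41165821-41175532 (minus strand), in introns of the protein-coding gene Gm5592 and the lincRNA Gm44748, had 117, 81.1 and 180 WT counts and 1340.2, 1336 and 1714 KO counts, a change of 4.49 ± 0.348 (adjusted p = 0.0257, edgeR). They hold 26.2 and 18.3 tandem units and each keeps a reading frame of 3846 bases. Every KO library exceeded every WT library by far, but neither call survived leaving out any 1 library (adjusted p of 0.0905 to 0.211 and 0.126 to 0.232), and over 11 alternatives adjusted p ranged from 3.28e-43 to 0.211 and from 1.67e-39 to 0.232.

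The 5 L1MdA elements with the highest mean level include these 2. The highest, an L1MdA_I annotation at chr1:24611230-24616803 (minus strand), went the other way, with 3438, 6237 and 5327 counts in WT against 1103, 1421 and 2403 in KO, although its log2 change of -0.61 ± 0.279 did not pass (adjusted p = 0.267, edgeR). Of its 5574 bases 4654 align to the mitochondrial genome at 99.9% identity, and it overlaps exons of unprocessed pseudogenes, Gm28439 among them. Its annotated L1 sequence begins at consensus base 3891. Without it the subfamily change of L1MdA_I was 1.01.

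The L1MdA_I element at chr3:91095001-91106136 (plus strand), 4198 bases from the gene 9130204L05Rik, carries the 104-base amplicon printed above and had 104, 191 and 132 counts in WT against 503, 825 and 2413 in KO. All KO libraries lay above WT, but they spread widely, and the change of 4.06 ± 0.584 did not pass (adjusted p = 0.0782, edgeR). The L1MdA_VI element at chr13:9831254-9840072 (minus strand) overlaps the miRNA gene Gm24187. It had 495, 853 and 1047 counts in WT against 852, 1107 and 1207 in KO, which overlap before scaling for depth. On the scale of the element fit its level was 295 CPM ± 54.4 in WT and 803 ± 179 in KO (SD, n = 3). The change of 1.44 ± 0.249 did not pass (adjusted p = 0.101, edgeR). Its annotated L1 sequence covers consensus bases 599 to 3003 within a span of 8819 bp.

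A further 3 copies with 10 or more units were chosen after their values were seen, as the next highest of that class. The element at chr2:80805875-80817445 (27.1 units) had 306, 268 and 292 counts in WT against 1731, 776 and 521 in KO. The element at chr6:67000627-67009642 (14.9 units), which overlaps an exon within the locus of Gng12 and its antisense gene Gm36816, had 98.1, 190 and 90.3 in WT and 663, 520 and 1558 in KO. The element at chr10:27812529-27825766, with the longest array, had 202, 202 and 225 in WT and 804, 390 and 878 in KO. In all 3 the lowest KO library exceeded the highest WT library, and none passed the test.

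**Figure D3:**
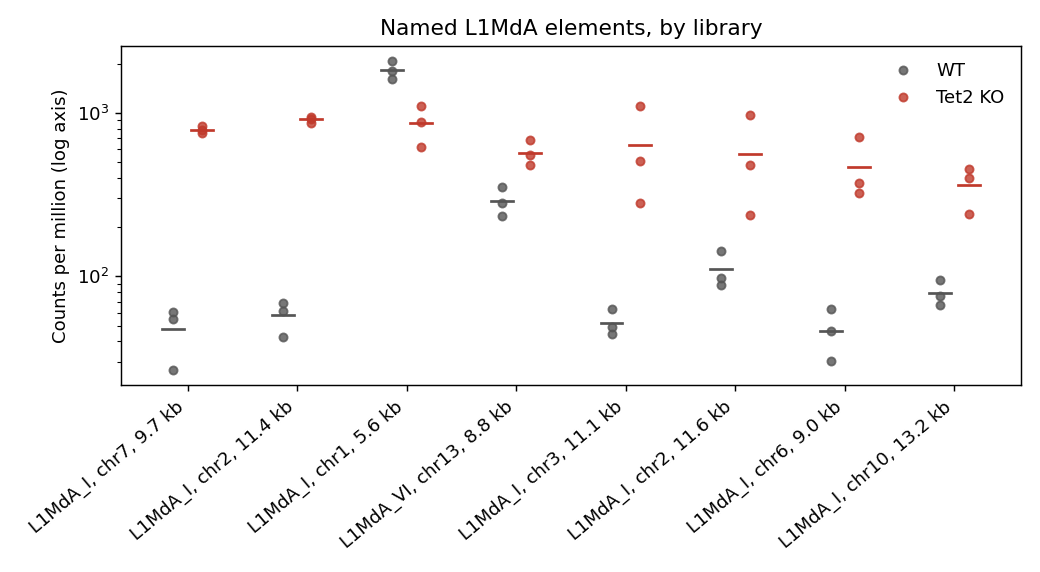
Levels of 8 named L1MdA elements in CPM on a log axis, a point per library and a line for the mean of 3, labelled by chromosome and span. The 6 L1MdA_I elements with long arrays are higher in all KO libraries, and the L1MdA_I annotation on chr1 that aligns to the mitochondrial genome is lower.

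Outside the lineage, 408 other tested subfamilies with a mean of at least 50 counts were ranked by the likeness of their log2 CPM to L1MdA_I over the 6 libraries. The closest were MMERGLN_LTR, the long terminal repeat of an endogenous retrovirus (Pearson r of 0.985), MER5A, a DNA transposon (0.975), and FordPrefect, another DNA transposon (0.966). The 6 libraries fall into 2 genotypes, so these values are a description only. MMERGLN_LTR stood at 3766 CPM ± 471 in WT and 12254 ± 1080 in KO, and MER5A at 15.2 ± 2.30 and 33.3 ± 4.45 (SD, n = 3).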

How the data were processed

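Reads from m5C-IP caRNA of 6 mES cell libraries were trimmed by the authors with Trimmomatic 0.39, aligned to mm10 with HISAT2 2.1.0 and deduplicated with Picard (submitters' processing notes), and counted per element with featureCounts. The deposited values are estimated counts per repeat element; the option that made them fractional is not given in the sources used here. Spike-ins and input were not used here. Counts were summed per subfamily, or per subfamily and length class, and rounded. KO and WT were compared with edgeR 4.0.16 (quasi-likelihood, filterByExpr, TMM, prior count 2, Benjamini–Hochberg, called at adjusted p under 0.05), fitted over all features of the table, and for within-library ratios and shares with an exact two-sided permutation test over 20 assignments. SE is the absolute log2 change over the square root of F. Log2 ratios by position, array, frame and context class are of group mean CPM. Members and lists were chosen with earlier results of these data known. Named loci are the called elements (up to 5 per direction), the 5 highest means, and further L1MdA_I copies with 10 or more units chosen after their values were seen. Sequences came from RefSeq GRCm38.p6, and 132 elements on contigs were not read. The mitochondrial match used blastn 2.17.0. On simulated data with 200 changed features, edgeR recovered 6% of log2 changes of 1 and 30% of changes of 2 among 547 subfamilies, and 36.4% of changes of 4 among 19030 loci. The changed features were drawn at random from all tested, so these rates do not describe the L1MdA subfamilies in particular. Alternatives were DESeq2 1.42.0 (size factors, Wald test), library totals, no filter, other length limits, removal of the highest elements, a replicate block and leaving out each library.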

Additional observations from a re-analysis of the deposited data

How the results depend on the processing

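Direction stayed the same for all 7 subfamilies in every alternative run. Log2 changes of L1MdA_I ranged from 0.87 to 1.16 and it was called in 14 of 15 alternatives (adjusted p of 5.96e-22 to 0.0659, edgeR and DESeq2). Library totals moved the median of all subfamilies from 0.12 to 0.29. L1MdA_III was -0.52 with DESeq2 size factors, -0.29 with library totals, -0.28 with elements of at least 10 counts and -0.53 to -0.43 without 1 library, none of which passed, and the cause was not tested. Short L1MdA_III elements were at -0.87 to -0.73 without 1 library. L1MdA subfamilies called numbered 2 in the main setting, 1 with size factors, with library totals, with elements of at least 10 counts and without any 1 library, and 4 with the DESeq2 Wald test (56 of all subfamilies against 11). Length classes called numbered 2, 6 with the DESeq2 Wald test (95 of all classes against 13) and 1 to 2 without 1 library. L1MdA loci called numbered 2, 0 without any 1 library, 540 with no filter and 1118 with the DESeq2 Wald test (4341 and 2158 of all loci against 9).

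Short L1MdA_V elements turned from 0.08 to -0.025 with no filter, to -0.31 at 6000 bp and to between -0.19 and 0.34 without 1 library. The long over short ratio of L1MdA_VI turned from 0.30 to -0.027 without the 10 highest elements. The exon share turned from -0.14 to 0.36 percentage points without the 10 highest L1MdA elements, to 0.66 without the mitochondrial-like element and ranged from -0.30 to 0.066 without 1 library. The removal of the mitochondrial-like element and a reading frame of 3000 bases were chosen after seeing the data, and changed no other direction.

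Replicate numbers did not pair the samples: deviations of WT and KO libraries of the same number correlated at -0.0935, -0.0356 and -0.0457. With the replicate block L1MdA_I was at 0.97 (adjusted p = 0.0659, edgeR), L1MdA_III at -0.47 (0.196) and short L1MdA_III at -0.75 (0.0671), and 0 subfamilies (of any kind), 1 L1MdA length class and 0 L1MdA loci were called.

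KO libraries were shallower than WT, and the calls of single elements moved with the test and the filter; their dependence on depth was not tested.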
